A study of Canis lupus familiaris with 62 samples.

Results

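The genes described here are the autosomal genes of the dog that span at least 500000 bases from their first to their last annotated exon base. They were found from the exon positions in the deposited count table (CanFam3.1, Ensembl release 100): 179 of the 30951 genes in the table, and 179 of the 29023 on chromosomes 1 to 38. The rule used no count, but it was chosen with earlier results of these data known. The 179 genes are called long genes below. Their RNA was measured in 62 meningiomas, which arise from the meninges that cover the brain, each from a different sample archived in paraffin as fixed tissue between 2011 and 2022. By the treatment labels, 22 tumours came from dogs that had surgery (13 with surgery alone, Sx, and 9 with surgery and radiotherapy, SxRT), 7 from dogs on a steroid (6 of these with the label steroid/anti-epileptic), 3 from dogs on an anti-epileptic alone, 3 from dogs with radiotherapy alone (RT) and 27 from dogs labelled with no treatment. The labels of 7 Sx and 7 SxRT tumours add "lost to follow-up", and these were merged with the other tumours of their group. The tumours arose spontaneously in dogs of various breeds, 31 female and 31 male, of which 7 were intact; ages are not used here. The protocol says that tissue was either a surgical biopsy or taken at necropsy, and the labels do not say which of these each sample was, nor whether it was taken before or after a treatment.

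Almost all of a gene of this size is intron. In mammals such genes are rich in genes of neurons, among them synaptic and cell adhesion genes, and the polymerase takes a long time to cross them, so that their output is known to depend on processes that act along the gene as well as at its start. The counts are of reads over exons only, so the exon length, and not the span, sets how many reads a transcript gives. The table holds identifiers and positions without symbols, and no long gene is therefore given a name or a function here, and neuronal or meningeal identity of the tissue could not be checked against marker genes. No sequence of these genes was used here.

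The libraries held 1967061 to 12063982 counts. The mitochondrial share of the counts was 10.01% ± 4.01 in surgical tumours (SD, n = 22), 20.1% ± 12.05 in steroid tumours (SD, n = 7) and 14.4% ± 7.91 in untreated tumours (SD, n = 27), with 46.7% in steroid replicate 5 and 46.5% in untreated replicate 12. Because both reads of a pair were counted, most small counts are even, and the share of even numbers among counts of 1 to 20 differs between libraries: it was 86.5% ± 3.46 in surgical tumours (SD, n = 22) and 91.2% ± 2.71 in untreated tumours (SD, n = 27). Sample names begin with S or N, and what these letters stand for is not given. All 21 S-named tumours had surgery, all 40 tumours without surgery have N names, and Sx replicate 1 is the N-named surgical tumour, so letter and surgery cannot be told apart except through that sample.

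The median long gene spanned 691923 bases (range 501271 to 2034736), against 9858.5 bases for the 28844 other autosomal genes. Its exons added up to 4053 bases (range 766 to 15716), against 1407 bases, in 23 exons, against 4. Exons thus covered 0.558% of the span of the median long gene, against 10.2% for the other autosomal genes with more than 1 exon. The median long gene's largest intron was 183852 bases, against 3948.5 bases. Long genes lay on all 38 autosomes, 1 to 11 on each, 86 on the plus and 93 on the minus strand, and 34 of them spanned 1000000 bases or more. Other genes lay within the span of 116 of them, 275 genes in all, and 9 long genes had an exon that overlapped an exon of another gene, where reads counted without strand cannot be assigned with certainty.

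Nearly all long genes were detected. The filter on low counts kept 178 of the 179, or 99.4%, against 59.95% of the other autosomal genes. The gene that did not pass lies on chromosome 3 from 49639304 to 50331227 and had 148 counts in 12 libraries. Counts above 0 in every library were found for 104 long genes. A surgical tumour had counts for 159.8 ± 7.91 of the 179 long genes (SD, n = 22) and an untreated tumour for 168.3 ± 8.30 (SD, n = 27), although the totals of the surgical libraries were higher (5356590 ± 2070800 counts, against 3951210 ± 1216060). Per kilobase of exon the median long gene stood at 2.17 log2 CPM (counts scaled to the library total) per kb, a level below the 2.77 of the other autosomal genes tested. Among genes whose log2 CPM averaged at least 2 it was 2.68 for long genes and 3.71 for the others. Long genes varied more between tumours: in the same selection, the median SD over the 62 libraries was 1.30 for 147 long genes and 0.742 for 11339 other autosomal genes. Together the long genes held 1.35% ± 0.163 of the autosomal counts in surgical tumours (SD, n = 22), 2.12% ± 0.607 in steroid tumours (SD, n = 7) and 1.58% ± 0.505 in untreated tumours (SD, n = 27).

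At this point 1 library has to be set apart. In untreated replicate 12 long genes held 3.21% of the autosomal counts, and 59.8% of these, 82373 counts, fell on ENSCAFG00000030258, on chromosome 8 from 72881377 to 73388517, within whose span 15 other genes of the table lie. In the library with the next largest share this gene took 4.85% of the long-gene counts, and the median over all libraries was 0.606%. Without it the long genes of untreated replicate 12 held 1.29%, within the range of the other untreated tumours, and the means became 1.33% ± 0.163 in surgical tumours (SD, n = 22) and 1.49% ± 0.390 in untreated tumours (SD, n = 27).

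To describe each tumour by a single value, a long-gene score was formed. For each of the 147 long genes whose log2 CPM averaged at least 2 over the libraries, the log2 CPM in a library less the gene's mean over all libraries was taken. These differences were averaged, and the same average over the 11339 other autosomal genes at that level was subtracted. A score of 1 thus means that long genes stood, on average, 1 log2 unit (2-fold) higher in that tumour than over all tumours, relative to other genes.

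Surgical tumours had low scores. The score was -0.57 ± 0.36 (SD, n = 22; lowest -1.08, median -0.61, highest 0.48) in surgical tumours and 0.16 ± 0.66 (SD, n = 27; lowest -0.88, median 0.07, highest 1.51) in untreated tumours, a difference of -0.73. Of the 22 surgical tumours 20 lay below the untreated median, and the groups overlapped, since untreated scores reached nearly as low as the lowest surgical ones. Both surgical groups lay at the same place: -0.58 ± 0.35 with radiotherapy (SxRT; SD, n = 9) and -0.57 ± 0.38 without (Sx; SD, n = 13). The spread of the untreated tumours was wide, with 4 of them above 1. The genes were chosen with earlier results of these data known, so the score carries no test. The level limit of the score uses all 62 libraries, so a long gene low in surgical tumours could enter through the other groups. With a minimum mean log2 CPM of 4 the difference was -0.43, and with a minimum of 0 it was -0.80. In bulk tissue fewer cells that use a gene and less RNA per cell cannot be told apart. The mitochondrial share and the even share were both lower in surgical tumours, as given above, and the part of the mitochondrial share in the score was not tested.

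The groups on drugs or radiotherapy alone had higher mean scores. The score was 0.69 ± 0.82 (SD, n = 7; lowest -0.81, median 1.09, highest 1.498) in steroid tumours. It was -0.30, 0.17 and 1.51 in the 3 anti-epileptic tumours and -0.16, 1.06 and 1.13 in the 3 RT tumours. Thus 11 of the 62 tumours had a score above 1: 4 steroid, 1 anti-epileptic, 2 RT and 4 untreated, and no surgical tumour. Each of these groups overlapped the untreated one.

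**Figure D1:**
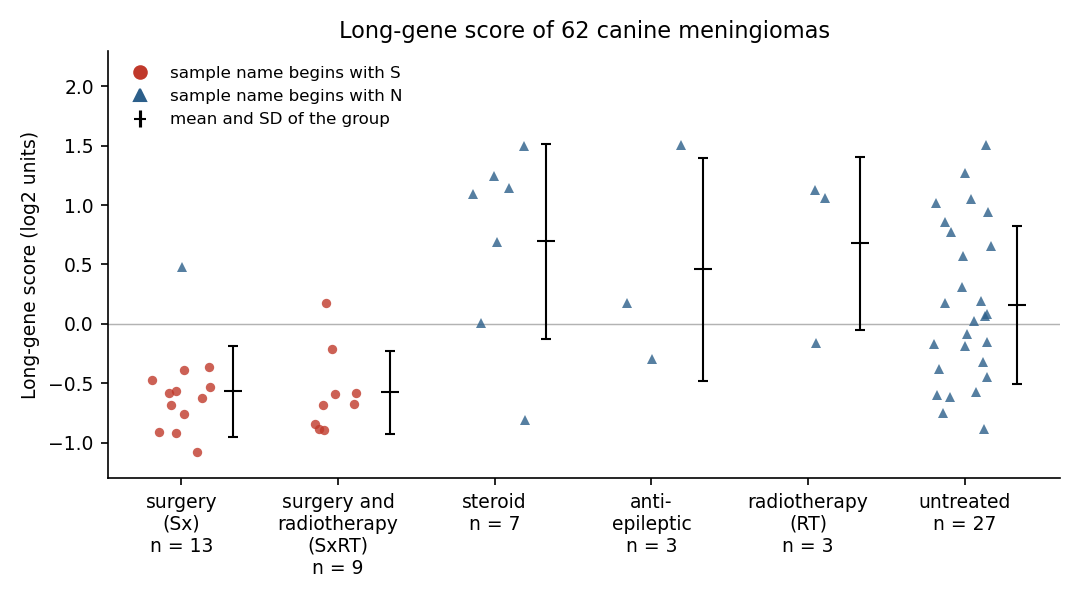
Long-gene score (log2 units, vertical axis) of each of 62 tumours by treatment group, with circles for sample names that begin with S, triangles for names that begin with N, and the mean and SD of each group as a black bar. Surgical tumours lie mostly between -1.08 and 0.17, with the N-named one at 0.48, and the other groups spread from -0.88 to 1.51.

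The tumours were also split by the letter of the sample name. S-named tumours had a score of -0.62 ± 0.28 (SD, n = 21, -1.08 to 0.17) and N-named tumours 0.32 ± 0.71 (SD, n = 41, -0.88 to 1.51). The N-named tumours include the steroid, anti-epileptic and RT tumours, so this is not the comparison with untreated tumours given above. Against untreated tumours alone, S-named tumours differed by -0.78 and all surgical tumours by -0.73. The N-named surgical tumour, Sx replicate 1, had a score of 0.48, above all S-named tumours. It is a single sample. Of the N-named tumours 22 of 41 lay above the highest S-named one, and of the untreated tumours 12 of 27 did, while the other 15 lay within the S range. The number in the name runs from 11 to 22. Within the names numbered 11 to 16 the score was -0.55 ± 0.32 in surgical (SD, n = 9) and 0.15 ± 0.69 in untreated tumours (SD, n = 18), and within 17 to 22 it was -0.59 ± 0.40 in surgical (SD, n = 13) and 0.18 ± 0.64 in untreated tumours (SD, n = 9), so the difference was present in both. Tumours of females had a score of 0.12 ± 0.72 and those of males -0.12 ± 0.77 (SD, n = 31 each).

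The score does not mean that every long gene moved. In a surgical tumour 37.6% ± 9.27 of the 147 scored long genes lay above their own untreated median (SD, n = 22), against 48.1% ± 17.6 in an untreated tumour (SD, n = 27). For the other autosomal genes the shares were 52.3% ± 2.10 in surgical and 48.1% ± 2.499 in untreated tumours. The spread of the long genes' share between untreated tumours was several times that of the other genes. Of the 147 genes, 110 were positively correlated with the score of the remaining long genes over the 62 libraries (median r 0.53, lowest -0.75, highest 0.96), and 108 were over the 27 untreated tumours alone (median r 0.52), against 38.3% and 39.3% of the other autosomal genes. These correlations share libraries and their depth, and are given as a description.

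The 12 genes of the X chromosome that span as much were not counted as members. The 7 of them with enough counts gave a score of -0.37 ± 0.46 in surgical tumours (SD, n = 22). It was 0.70 ± 1.04 in steroid tumours (SD, n = 7) and 0.06 ± 0.54 in untreated tumours (SD, n = 27). For these groups the order of means was that on the autosomes, with 2.66 in steroid replicate 5. The RT tumours had 0.62, 0.58 and 0.44. The anti-epileptic tumours had 0.61, -0.35 and -0.32.

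Gene by gene, surgical tumours (mean of Sx and SxRT) were compared with untreated tumours, the largest comparison of the study. Of the 178 long genes tested 68, or 38.2%, were lower in surgical tumours and 12, or 6.74%, were higher (edgeR quasi-likelihood test over 18370 genes, adjusted p under 0.05). The background was 10.4% of all tested genes called lower and 6.37% called higher, so the share called higher was near the background and the share called lower was well above it. Among the long genes called, 66 of 68 were over 2-fold lower and 3 of 12 over 2-fold higher. The median log2 fold change of the long genes was -0.73 (quartiles -2.08 and 0.06), against -0.02 for all genes tested, and 128 of 178 were negative, against 51.3% of all genes. With untreated replicate 12 left out, 68 long genes were called lower and 11 higher. In all, 3074 genes were called in either direction without that library, against 3078 with it. The genes called lower lay on 31 chromosomes, and in 26 of the 30 chromosomes with at least 3 long genes the median was below 0. Those called higher lay on 11 chromosomes. With the even share of each library as a covariate, 10 long genes were called lower and 3 higher, against backgrounds of 2.58% and 1.42%, and the median was -0.57; the even share moves with surgery, and its part in the result was not tested further. DESeq2 called 76 long genes lower and 12 higher, against 12.7% and 6.46% of all genes, and limma voom 48 and 14, against 7.54% and 8.73%. Among names numbered 17 to 22 the fit called 3 long genes lower and none higher, against 0.174% and 0.19% of genes, and among those numbered 11 to 16 none, against 0%.

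Of the called long genes, the largest increases and decreases were as follows (log2 CPM averaging at least 1, and group medians at least 0.5 apart). ENSCAFG00000016291, on chromosome 37 from 30214947 to 30835991 on the plus strand, has 19 exons over 3891 bases and fell, with a log2 fold change of -4.47 (SE 0.870, adjusted p 0.000391 by edgeR). Its log2 CPM was -1.16, -1.16 and 2.38 (lowest, median, highest; n = 22) in surgical tumours and -1.16, 0.59 and 6.15 (n = 27) in untreated tumours, -1.16 being the value of a library without counts. It had no counts in 13 of 22 surgical and 8 of 27 untreated libraries, so that the groups overlapped at the bottom, and the high values among these 2 groups were untreated. The steroid tumours had -1.16, 4.97 and 6.16 (n = 7), the highest anti-epileptic tumour 5.24 and the highest RT tumour 4.92. ENSCAFG00000008149, on chromosome 17 from 46090978 to 46796020 on the plus strand, consists of 3 exons with 2758 bases, and a single intron of 700467 bases makes up nearly all of its span. Its log2 fold change was -4.10 (SE 0.693, edgeR adjusted p 0.000107), with log2 CPM values of -1.16, 0.12 and 2.49 (n = 22) in surgical tumours and -1.16, 2.82 and 6.21 (n = 27) in untreated tumours. None of the 22 surgical values exceeded the untreated median.

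ENSCAFG00000003387, on chromosome 14 from 53312045 to 53862655 on the plus strand, with 21 exons over 2704 bases, rose with a log2 fold change of 1.35 (SE 0.463, adjusted p 0.0355 by edgeR). Surgical tumours had a log2 CPM of 2.53, 6.04 and 7.999 (n = 22) and untreated tumours of 0.42, 4.24 and 6.93 (n = 27), and 18 of the 22 surgical values exceeded the untreated median. ENSCAFG00000016192, on chromosome 6 from 13134817 to 13675016 on the minus strand, with 48 exons over 6860 bases, rose with a log2 fold change of 1.22 (SE 0.254, adjusted p 0.000797 by edgeR). Surgical tumours had a log2 CPM of 4.90, 6.83 and 8.49 (n = 22) and untreated tumours of 2.68, 5.81 and 7.49 (n = 27), and 20 of the 22 surgical values exceeded the untreated median. The ranges of both genes overlapped between the groups. Over the 27 untreated tumours alone, the correlation with the score of the other long genes was -0.01 for ENSCAFG00000003387 and -0.33 for ENSCAFG00000016192, a description. The exons of these 4 genes overlap no other gene of the table.

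**Figure D2:**
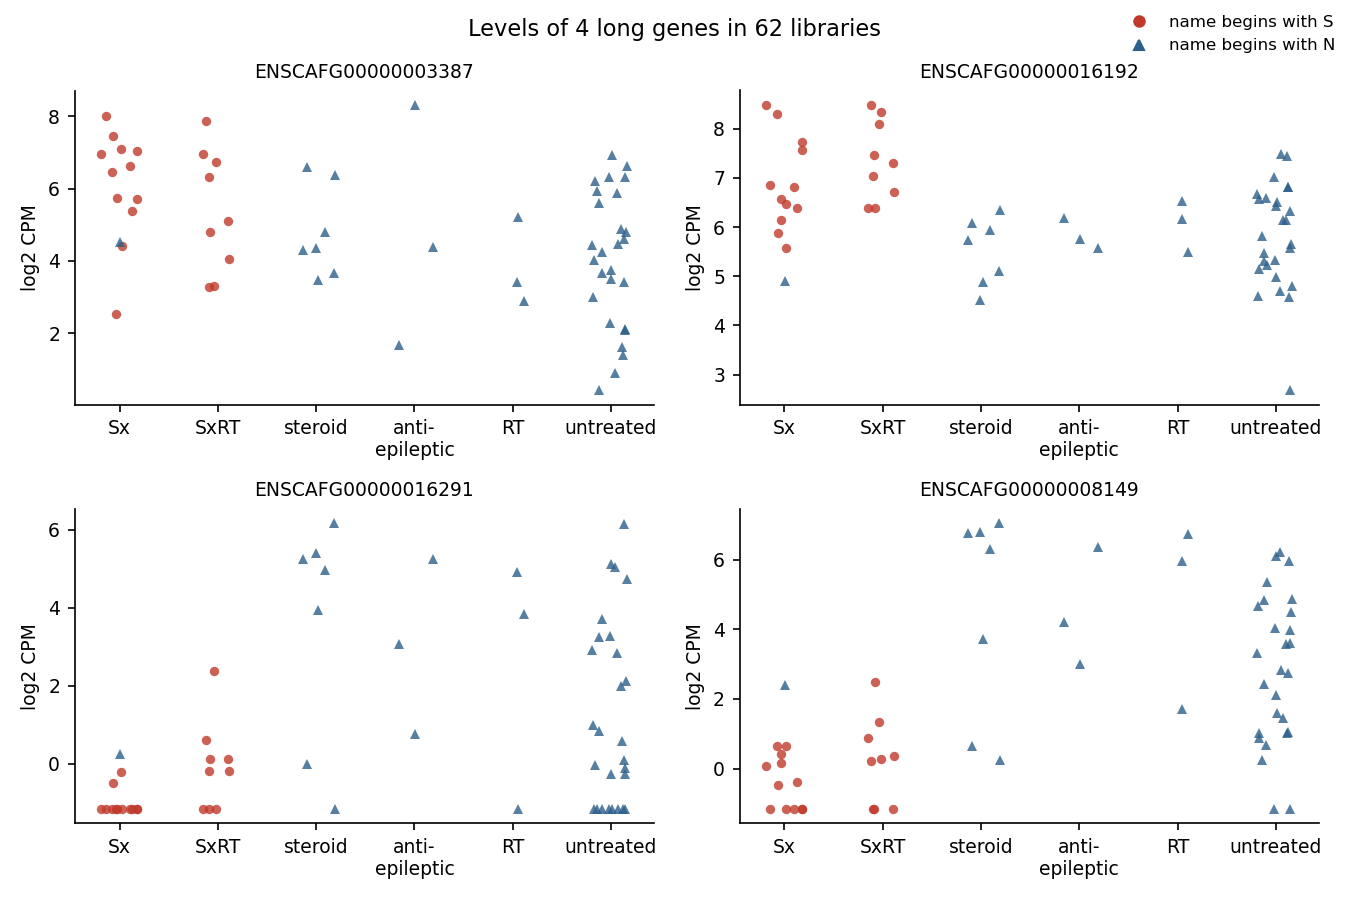
Log2 CPM (vertical axis) in each library, by treatment group, of the 2 long genes with the largest increases (upper panels) and the 2 with the largest decreases (lower panels) in surgical against untreated tumours; each point is a library, and -1.16 is the value without counts. In the lower panels the S-named libraries reach at most 2.49, while the untreated ones reach 6.15 and 6.21.

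Further long genes were picked for their span or for their counts. The widest, on chromosome 6 from 34220648 to 36255384, spans 2034736 bases with 3458 bases in 31 exons. Its log2 CPM was -1.16, 1.58 and 5.68 (lowest, median, highest; n = 22) in surgical tumours and -1.16, 3.18 and 7.89 (n = 27) in untreated tumours, with a log2 fold change of -2.40 (SE 0.679, edgeR adjusted p 0.0101); 3 of the 22 surgical values exceeded the untreated median. The long gene with the highest level per exon length, 6.75 log2 CPM per kb, lies on chromosome 5 from 48496773 to 49064848. Its log2 CPM was 6.05, 8.37 and 9.02 (n = 22) in surgical tumours and 6.74, 7.77 and 8.68 (n = 27) in untreated tumours. It rose with a log2 fold change of 0.50 (SE 0.155, edgeR adjusted p 0.0203), and 19 of the 22 surgical values exceeded the untreated median. ENSCAFG00000030258, which dominated the long-gene counts of untreated replicate 12, was picked for that library. It had log2 CPM values of 2.26, 5.20 and 8.67 (n = 22) in surgical and 3.27, 7.201 and 13.96 (n = 27) in untreated tumours. Its log2 fold change was -2.39 (SE 0.764, adjusted p 0.0236 by edgeR) with that library and -1.05 (SE 0.532, adjusted p 0.174 by edgeR) without it, a fit added after the data were seen, so its call rests on untreated replicate 12.

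Around the limit of 500000 bases the values were mixed. The narrowest long genes spanned 501271, 501319 and 502937 bases, with log2 fold changes of -2.37, -0.08 and -0.15. The widest genes outside spanned 499403 and 498038 bases, with log2 fold changes of 0.04 and -0.77, and 497933 bases, a gene that did not pass the filter on low counts.

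Over all autosomal genes the share called lower in surgical tumours rose with the span in every class. It was 7.62% of 6127 genes under 10000 bases, 9.05% from 10000, 12.6% from 50000, 14.3% from 100000, 16.4% from 200000 and 22.1% from 300000 to under 500000 bases. Among long genes it was 34.4% of 90 under 700000 bases, 37.0% of 54 from 700000 and 50% of 34 from 1000000 bases. The share called higher had no such order: it lay between 4.62% and 7.53% in the classes under 500000 bases and was 6.67%, 11.1% and 0% in the 3 classes of long genes. The median log2 fold change was 0.05 in the narrowest class and -1.62 in the widest. The widest class also had the lowest level of the 3 classes of long genes, with a median mean log2 CPM of 3.15. It was 4.47 and 4.40 in the narrower 2. The part of level in these values was not tested. Within long genes the score of the wider ones (above 701348 bases) was -0.72 ± 0.48 in surgical (SD, n = 22) and 0.21 ± 0.81 in untreated tumours (SD, n = 27), and that of the narrower ones -0.42 ± 0.28 in surgical and 0.11 ± 0.53 in untreated tumours.

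**Figure D3:**
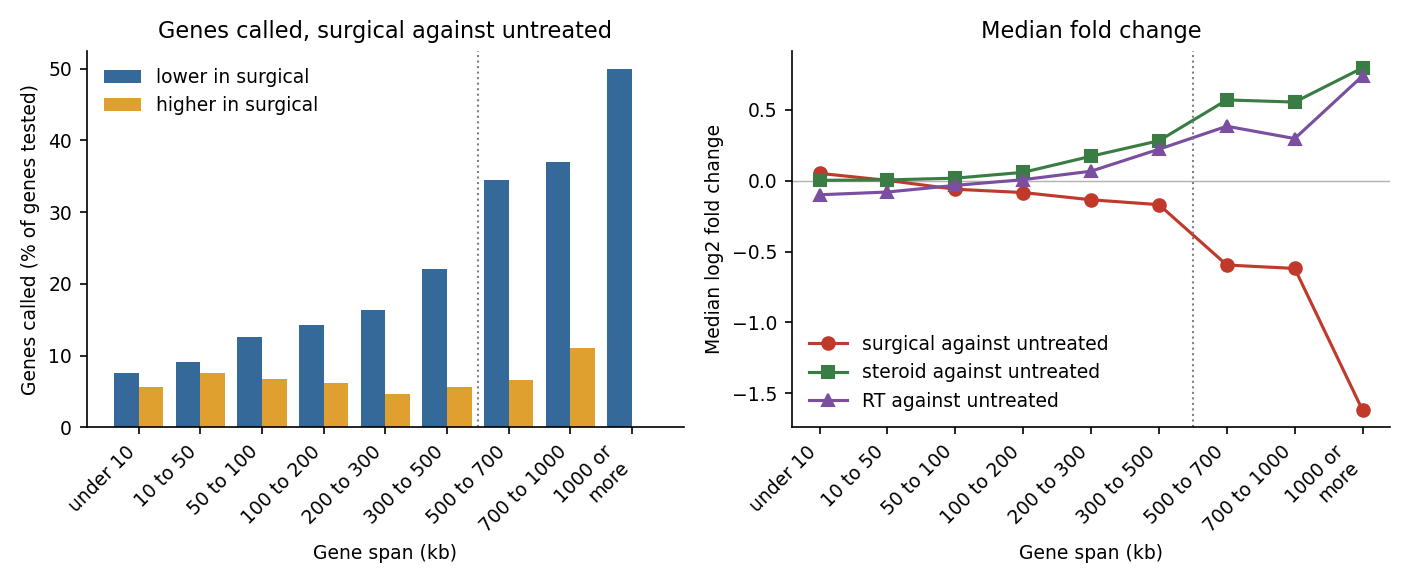
Left, genes called lower or higher in surgical against untreated tumours (percent of the genes tested) by class of gene span; right, the median log2 fold change of each class for surgical, steroid and RT tumours against the same untreated tumours. The dotted line marks 500000 bases; the share called lower is 7.62% in the narrowest class and 50% in the widest.

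Among long genes, exon length had little relation to the change, and the relation to span was weak. Across the 178 long genes the log2 fold change in surgical tumours had a slope of 0.13 (SE 0.112) per doubling of exon length, with r 0.09 and rho 0.10, a description across genes, which are not independent replicates. Over the 147 long genes that form the score the sign turned, with a slope of -0.032 (SE 0.117, r -0.02). Across 17470 autosomal genes the slope was -0.02. On span the slope of the long genes was -0.44 (SE 0.205, r -0.16), and across the 17470 autosomal genes it was -0.04 (r -0.10). In 4 equal classes of exon length, shortest first, 40%, 38.6%, 31.8% and 42.2% of the long genes were called lower, and 9.25%, 12.7%, 10.5% and 10.2% of the other autosomal genes in the same length ranges. Autosomal genes that span 100000 to under 500000 bases stood between them, at 16.1%, 19.9%, 14.1% and 10.3%. Scores formed from long genes with long exons (above 4504 bases) and with short exons gave nearly the same values: -0.58 ± 0.38 and -0.56 ± 0.36 in surgical tumours (SD, n = 22), and 0.15 ± 0.64 and 0.17 ± 0.70 in untreated tumours (SD, n = 27). In the shortest of the 4 classes, 30 scored long genes averaged -0.34 ± 0.32 in surgical and 0.12 ± 0.52 in untreated tumours. The longer classes, in order, averaged -0.67, -0.56 and -0.64 in surgical and 0.18, 0.17 and 0.16 in untreated tumours. These class scores are relative to all autosomal genes averaging at least 2 log2 CPM, long genes included. In a linear model over the 17470 autosomal genes with exon length and mean level as further terms, long genes were offset by -0.80 in the surgical comparison and the slope on exon length was -0.12. With span in place of membership the slope on exon length was 0.01 and that on span was -0.09.

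The mean level had the closest relation to the change. The fold change of the long genes rose by 0.36 (SE 0.0355) per log2 unit of mean level, with r 0.61 and rho 0.61 over 178 genes. Across 17470 autosomal genes it also rose, by 0.09 (r 0.23). Of the long genes with a mean log2 CPM under 2, 51.6% of 31 were called lower, against 12.3% of the other autosomal genes at that level. From 2 to under 4 it was 57.4% of 54, against 10.6%, and from 4 to under 6 it was 34.7% of 49, against 8.13%. At a mean log2 CPM of 6 or more it was 9.09% of 44 long genes, against 7.46%. In the other direction, no long gene with a mean log2 CPM under 4 was called higher, against 2.47% of the other genes under 2 and 4.27% from 2 to under 4. From 4 to under 6 it was 6.12%, against 9.65%, and at 6 or more 20.5%, against 13.04%. Accordingly the genes called lower had a median mean log2 CPM of 3.02 and those called higher of 6.52. A gene that is low in most tumours has fewer counts and a less certain fold change, and the mean itself includes the groups compared.

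**Figure D4:**
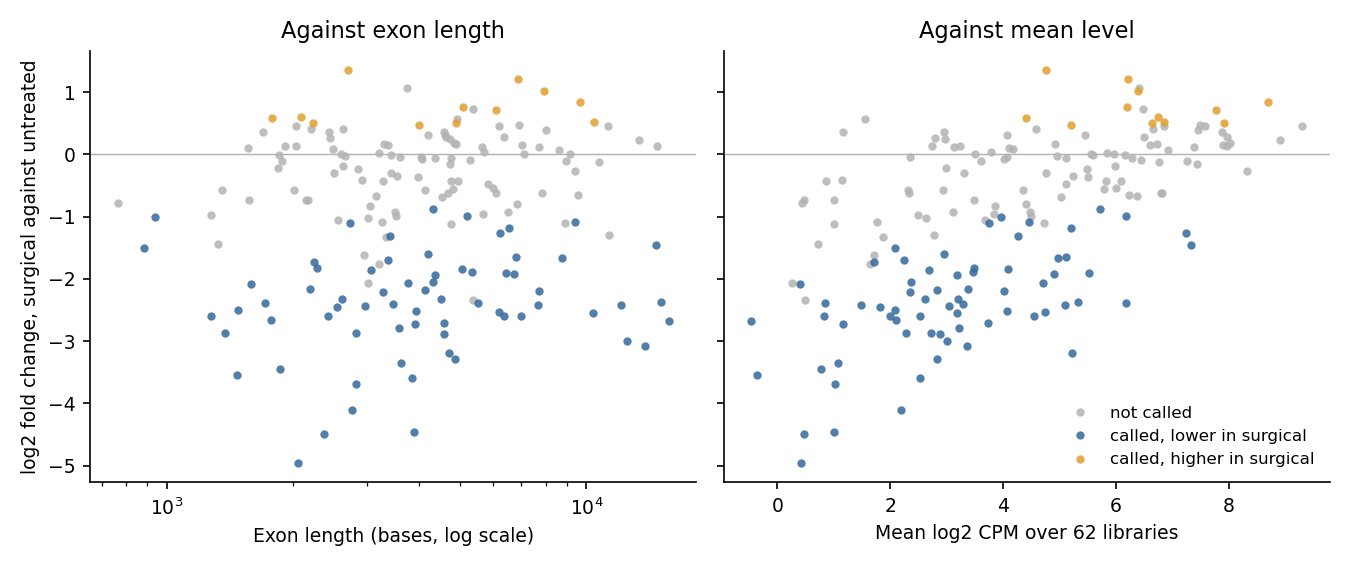
Log2 fold change in surgical against untreated tumours (vertical axis) of 178 long genes against exon length in bases (left, log scale) and against mean log2 CPM over 62 libraries (right), with called genes in blue (lower) and yellow (higher). There is little slope on exon length (0.13 per doubling) and a clear slope on the mean level (0.36 per log2 unit).

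**Figure D5:**
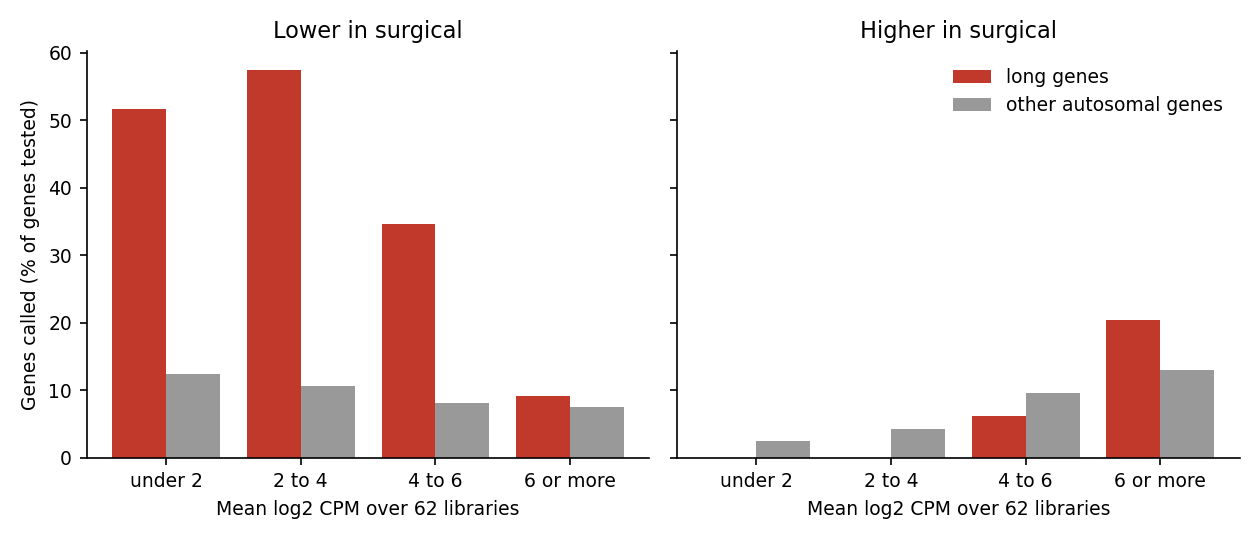
Share of genes tested that were called lower (left) or higher (right) in surgical against untreated tumours, by class of mean log2 CPM, for long genes (red) and other autosomal genes (grey). Long genes called lower make up 57.4% of those with a mean log2 CPM from 2 to under 4 and 9.09% of those at 6 or more.

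With the letter in place of the treatment, 94 long genes were called lower and 14 higher in S-named against N-named tumours (edgeR quasi-likelihood test, adjusted p under 0.05), against backgrounds of 14.7% and 10.4% of all genes. This contrast was added after the data were seen, and it differs from the surgical one in Sx replicate 1 and in the treated tumours without surgery.

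In steroid against untreated tumours no long gene was called in either direction (edgeR quasi-likelihood test), while the background was 0.256% of genes called higher and 0% lower. At an unadjusted p under 0.05, 27 of 178 long genes were higher and 2 lower, against 6.99% and 3.98% of all genes; with DESeq2 1 was called, against 0.746% of all genes, and with limma voom 12, against 1.53%. The median log2 fold change was 0.64, against 0.03 for all genes, and 143 of 178 were positive. Of the 68 long genes lower in surgical tumours, 64 had a positive fold change here, with a median of 1.07. Both comparisons use the same 27 untreated tumours, so that these values are set side by side and do not count as separate evidence.

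In RT against untreated tumours 1 long gene was called higher and none lower, against a background of 0.425% higher and 0.0109% lower. It was ENSCAFG00000014621, on chromosome 34 from 33748843 to 34299276 on the minus strand, which is given here because it was the single gene called and was picked after its values were seen. Its log2 CPM was 8.59, 4.32 and 4.02 in the 3 RT tumours and 2.69, 4.47 and 7.28 (lowest, median, highest; n = 27) in untreated tumours. RT replicate 1 was thus high and the other RT tumours lay near the untreated median. The log2 fold change was 2.40 (SE 0.538, adjusted p 0.0123 by edgeR), and without RT replicate 1 no long gene was called. The median log2 fold change of the long genes was 0.41, against -0.06 for all genes, and 122 of 178 were positive. With limma voom 24 long genes were called, against 1.65% of all genes, and with DESeq2 1, against 0.316%.

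In anti-epileptic against untreated tumours no long gene was called (edgeR quasi-likelihood test; background 0.00544% higher and 0% lower), with 3 higher and 1 lower of 178 at an unadjusted p under 0.05 (1.95% and 2.66% of all genes, so near the background), none called with DESeq2 or limma voom (0.163% and 0.0327% of all genes), and a median log2 fold change of 0.19, against -0.05 for all genes. In SxRT against Sx tumours no long gene was called either (edgeR quasi-likelihood test; background 0.0109% higher and 0% lower), with 4 higher and 12 lower of 178 at an unadjusted p under 0.05 (2.10% and 3.01% of all genes), none called with DESeq2 or limma voom (0.212% and 0.0163% of all genes), and a median of -0.10, against -0.04 for all genes. Each tumour is a separate sample by its labels, and the p-values measure the spread between these samples.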

How the data were processed

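Total RNA of fixed, paraffin-embedded meningiomas was sequenced as 150 nt pairs, per the labels' protocols. The deposited table of raw counts was made by the authors with featureCounts 2.0.4 from primary alignments, per the file headers, using CanFam3.1 exons of the Ensembl annotation (release 100). Strand was ignored, and each read of a pair was counted. The submitters' processing notes list STAR and DESeq2, whose versions are not used here. The gene's span is its largest exon end minus its smallest exon start; its exon length is the deposited Length, in bases.

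Low counts were removed with filterByExpr, given the treatment groups (18370 of 30951 genes kept), and libraries were scaled by TMM (factors 0.556 to 1.24) and fitted with edgeR 4.0.16 in R 4.3.3: 1 quasi-likelihood model of 62 libraries with 6 treatment groups, sex and neuter status, Benjamini-Hochberg adjustment over all genes tested, and a threshold of 0.05. Log2 CPM used a prior count of 2. The treatment label gave the groups (Sx was read as surgery, RT as radiotherapy), and replicate numbers follow accession order without pairing. Named long genes were called, averaged at least 1 log2 CPM and had group medians at least 0.5 apart in the direction of the fold change; of these the 2 largest changes per direction were taken (8 higher and 59 lower were eligible). The member genes, the lists and the score were chosen with earlier results of these data known. The name table at hand matched 0 identifiers, so the planned lists of cell type markers and of synaptic genes were not used, and no sequence was printed. Counts were simulated from the real means for the surgical comparison (17905 genes). On these the fit called 84.0% of 50 genes lowered by 2 log2 units and 56.0% of 50 lowered by 1. The changed genes were drawn from those averaging above 2 CPM, and counts were drawn independently for each gene and library. These shares therefore do not cover long genes at lower levels, nor variation that libraries share. Alternatives used DESeq2 1.42.0 and limma 3.58.1. Python 3.11.15 with pandas 2.3.3, numpy 2.4.6, scipy 1.17.1 and matplotlib 3.10.9 was used for the rest.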

Additional observations from a re-analysis of the deposited data

Results flagged for a closer look

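Among 22 sets of values in groups of 7 or 9 tumours, 3 held a library far from the others; chance gives about 1 in 20. In steroid replicate 2, 152 of the long genes had counts, while the next lowest steroid library had 168 and the highest 179; its total was 2889519 counts and its score -0.81. In the same library the log2 CPM of ENSCAFG00000014621 was 0.93, with the next lowest steroid library at 4.07. In SxRT replicate 5 the log2 CPM of ENSCAFG00000016291 was 2.38, with the next highest SxRT library at 0.60 (32 and 6 counts). Groups of 3, 13 and 27 tumours were not looked at in this way.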

How the results depend on the processing

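The difference in score between surgical and untreated tumours (-0.73) kept its sign under the alternatives run on the whole score. It ranged from -0.91 (spans of 700000 bases or more) to -0.43 (mean log2 CPM of at least 4). It moved by less than the SD of single tumours. That SD is wider than the uncertainty of a difference of means, so this limit is a loose one. The 44 long genes at a mean log2 CPM of 6 or more were also scored apart. Here the mean of all autosomal genes averaging at least 2 log2 CPM was subtracted, long genes included. The group means of these 44 genes were 0.02 in surgical and -0.03 in untreated tumours. The other autosomal genes at a mean log2 CPM of 6 or more had 0.08 and -0.002. Leaving out each library gave a difference of -0.78 to -0.68, with -0.78 without Sx replicate 1. Untreated replicate 12 is the library of these groups with over 40% mitochondrial counts, and without it the difference was -0.75. With the median over long genes it was -0.52 and with exon length and level in a regression -0.69. The slope on exon length (0.13) was 0.07 to 0.14 with other tools, spans and the even share, and -0.032 over the 147 long genes averaging at least 2 log2 CPM, an alternative added after the data were seen. The 68 lower and 12 higher long genes became 10 and 3 with the even share as covariate, 0 and 0 in names numbered 11 to 16 (0 genes called in all), 3 and 0 in names numbered 17 to 22 (71 genes called in all), where the median log2 fold changes were -0.76 and -0.56, and fewer samples entered each of these fits. A minimum span of 300000 bases gave 146 lower and 32 higher of 531 genes, and one of 700000 gave 37 and 6 of 88, as other genes were counted. Other tools, normalization, filter and covariates gave 48 (limma voom) to 76 (DESeq2) lower and 10 to 14 higher. Leaving out each surgical library gave 61 to 75 lower and 9 to 13 higher, with 2630 to 3545 genes called in all. For steroid tumours 0 called (47 genes called in all) became 1 with DESeq2 (137 in all) and 12 with limma voom (281 in all). The count was 2 without sex and neuter status (109 in all) and 2 of 531 with a minimum span of 300000. Without each library it was 0 to 3. It was 3 without steroid replicate 2 (112 in all) and 3 without replicate 6 (142 in all). For RT tumours 1 called (80 genes called in all) became 2 with DESeq2 size factors (86 in all). The count was 2 with no filter (216 in all) and 24 with limma voom (303 in all). With the compared groups only it was 0 (23 in all). It was 3 of 531 with a minimum span of 300000 and 0 of 88 with one of 700000. Without each library it was 0 to 5. It was 0 without RT replicate 1 (8 in all) and 5 without RT replicate 3 (196 in all). Counts stayed at 0 for the anti-epileptic tumours and for SxRT against Sx under every alternative run. The causes of these shifts were not tested. No paired analysis was possible because the labels give no replicate numbers shared between groups. Low counts limit the genes with few reads, and both reads of a pair were counted, so the totals overstate the number of fragments.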
